A study of Drosophila melanogaster with 3 samples.

Results

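The genes described here are 35 regulators of neural and mesodermal cell fate of Drosophila melanogaster. They are 18 neural and 17 mesodermal genes of 13968 protein-coding genes annotated on the chromosome arms. They were chosen by name and not by a filter on measured values, but with earlier results of these data known. Binding of the tagged protein CG10431 at these genes was measured by chromatin immunoprecipitation followed by sequencing (ChIP-seq). The material was whole embryos of pooled sexes, 0 to 12 h old, of 1 transgenic line that stably expresses CG10431 with green fluorescent protein (GFP) fused to its C terminus. The 3 samples were biological replicates of this 1 group, and all carried the tagged protein, so there was no second genotype, stage or treatment to compare. The labels do not give the promoter that drives the fusion. A free-text label calls the libraries input controls, whereas the assay title and the antibody entry name a ChIP, and the libraries were treated as ChIP. Embryos of this age span stages before and after neural and mesodermal fates are set, and in whole embryos a site bound in fewer cells and a site bound more weakly in each cell cannot be told apart.

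Among the neural genes is the proneural group (ac, sc, l(1)sc, ase and ato), which encodes basic helix-loop-helix proteins. Those of ac, sc, l(1)sc and ato give ectodermal cells the capacity to become neural precursors. Other neural genes act in the precursors (SoxN, D, wor, dpn, scrt, nerfin-1 and pros) or in asymmetric division (mira and insc). The rest belong to the series of transcription factors that dividing neuroblasts express in turn (cas, pdm2, nub and grh). The mesodermal genes act in heart and visceral muscle (tin, bap, bin, Hand, the T-box genes Doc1, Doc2 and Doc3, and zfh1), in body wall muscle (Mef2, nau, lmd, slou and ap), or in signalling and differentiation (htl, pnt, how and eya). Several members, among them pnt, zfh1, ap, eya and how, also act in other tissues.

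Each replicate was deposited as a list of 30000 candidate entries, which hold peaks together with background. A list of equal length was called on the pooled replicates, and the authors kept 3314 of its entries as reproducible by irreproducible discovery rate (IDR). These were also the 3314 strongest pooled entries by signal, so being an IDR entry here equals a pooled rank of 3314 or better. Signal is the value of the authors' peak caller. It has no stated scale, ran from 186.7 to 69279 among the IDR entries with a median of 280.0, and is compared here within a list, mostly by its rank, where rank 1 is the strongest. The 3314 strongest entries of a replicate stood for its peaks, and the number of reads is unknown. A summit was placed at a gene's promoter when it lay within 500 bp of any of the gene's transcript starts, in its body when it lay elsewhere between the gene's ends, and in its flank when it lay outside but within 10 kb of either end.

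At the promoter, 0 of 18 neural and 4 of 17 mesodermal genes (tin, ap, pnt and how) had an IDR summit, against 14.8% of protein-coding genes. In the body, 4 neural genes (pros, insc, pdm2 and grh) and 4 mesodermal genes (zfh1, Mef2, pnt and how) had one, which is 22.9% of the 35 members against 5.92% of protein-coding genes. Counting promoter, body and flank together, 8 neural and 11 mesodermal genes had an IDR summit, or 54.3% of members, a share near the 51.8% of protein-coding genes. The 35 summits behind these counts were all distinct: 5 at promoters (14.3%), 12 in bodies (34.3%) and 18 in flanks (51.4%). Over protein-coding genes the same split was 16.8%, 9.64% and 73.6% of 13845 pairs of gene and summit. These pairs came from 3233 distinct summits, since a summit was counted for every gene within reach. Of the distinct summits, 1698 lay at a promoter, 1267 in a body and 2718 in a flank of some gene. By pairs, the promoter share of the members as a whole was near the background, but it joined 0% of neural and 20.8% of mesodermal summits. Their body share was above this background of pairs and their flank share below it. How far the repeated counting of summits shapes these differences was not tested.

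**Figure D1:**
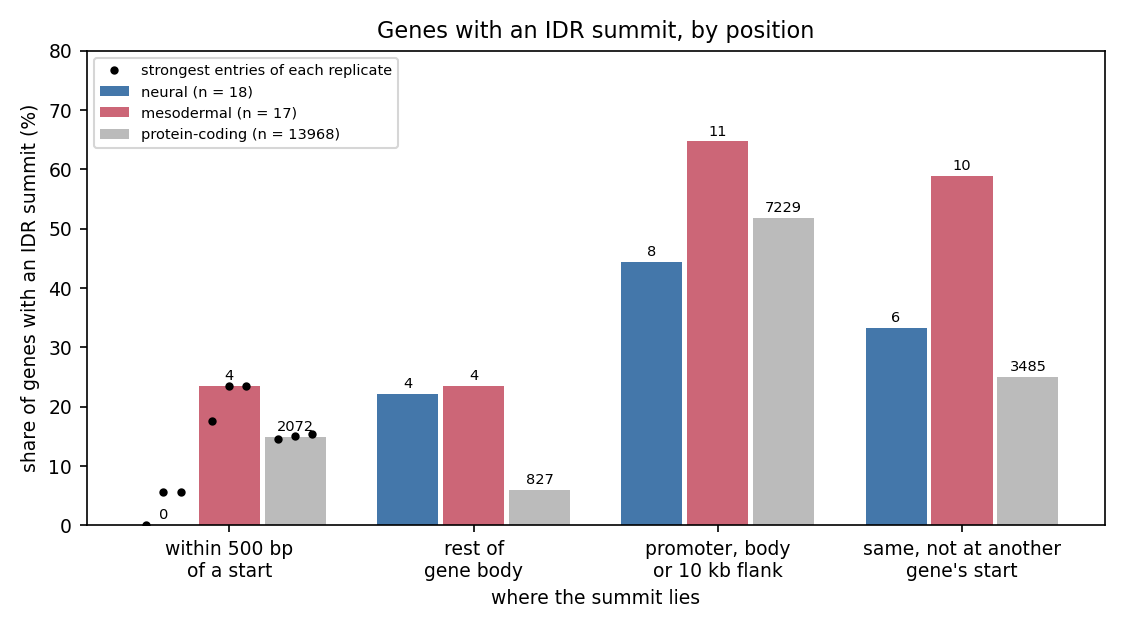
Share of genes (y axis, percent) with an IDR summit by where the summit lies (x axis), for neural genes, mesodermal genes and all protein-coding genes; the number above a bar is the count of genes, and points give the share from the 3314 strongest entries of replicates 1, 2 and 3, left to right, for the promoter class. The promoter bar of the neural genes is at 0 and that of the mesodermal genes at 23.5%, while both lists stand above the protein-coding genes in the gene body.

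To show what the bound DNA looks like in each kind of place, the sequences are given for 8 of these summits, 3 at promoters (tin, pnt and how) and 5 elsewhere (l(1)sc, D, pdm2, bin and pnt). Each line gives 201 bp centred on the summit, on the plus strand of the RefSeq copy of dm6, in windows that overlap no annotated exon; the single capital in the middle is the summit base, and a run of capitals is a match to TACATGG on either strand. That 7-mer was found in an earlier search of these same peaks and serves here as a description.
tin, 268 bp upstream of its start, chr3R:21378609-21378809: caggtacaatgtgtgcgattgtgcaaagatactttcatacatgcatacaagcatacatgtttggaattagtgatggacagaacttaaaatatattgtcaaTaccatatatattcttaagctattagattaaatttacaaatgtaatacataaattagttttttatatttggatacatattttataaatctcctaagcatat
pnt, 231 bp upstream of a start, chr3R:23314446-23314646: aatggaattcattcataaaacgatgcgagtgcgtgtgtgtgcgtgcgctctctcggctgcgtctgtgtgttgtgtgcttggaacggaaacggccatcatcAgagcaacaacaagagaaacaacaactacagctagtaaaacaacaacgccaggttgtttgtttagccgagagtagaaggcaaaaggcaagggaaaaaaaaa
how, 194 bp upstream of its start, chr3R:22041897-22042097: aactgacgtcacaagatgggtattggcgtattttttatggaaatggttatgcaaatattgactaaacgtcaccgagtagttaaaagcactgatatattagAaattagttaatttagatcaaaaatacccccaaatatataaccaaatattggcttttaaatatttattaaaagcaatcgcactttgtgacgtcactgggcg
l(1)sc, 2091 bp upstream of its start, chrX:407530-407730: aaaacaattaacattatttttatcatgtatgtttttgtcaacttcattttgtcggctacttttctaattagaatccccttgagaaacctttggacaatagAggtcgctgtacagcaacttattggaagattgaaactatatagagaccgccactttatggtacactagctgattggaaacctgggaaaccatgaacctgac
D, 3162 bp from its nearest start and beyond its 3′ end, chr3L:14174275-14174475: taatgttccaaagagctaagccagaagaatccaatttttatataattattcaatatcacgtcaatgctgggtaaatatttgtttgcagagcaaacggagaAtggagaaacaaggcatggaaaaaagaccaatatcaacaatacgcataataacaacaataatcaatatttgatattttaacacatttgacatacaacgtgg
pdm2, intron, 3260 bp downstream of a start, chr2L:12681764-12681964: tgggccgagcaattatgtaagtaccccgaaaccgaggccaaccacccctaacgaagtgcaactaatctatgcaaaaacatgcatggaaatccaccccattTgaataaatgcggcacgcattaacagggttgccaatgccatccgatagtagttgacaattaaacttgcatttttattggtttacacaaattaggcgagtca
bin, 1340 bp upstream of its start, chr3L:6989182-6989382: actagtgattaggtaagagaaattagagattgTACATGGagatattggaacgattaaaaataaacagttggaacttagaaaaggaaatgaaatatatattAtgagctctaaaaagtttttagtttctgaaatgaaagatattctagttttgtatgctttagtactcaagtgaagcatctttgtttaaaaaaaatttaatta
pnt, intron, 14682 bp downstream of the nearest of its starts, chr3R:23331385-23331585: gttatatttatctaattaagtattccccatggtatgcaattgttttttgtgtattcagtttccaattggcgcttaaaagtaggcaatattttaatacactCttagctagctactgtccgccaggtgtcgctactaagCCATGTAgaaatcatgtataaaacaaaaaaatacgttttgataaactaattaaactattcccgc

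TACATGG occurred in 2 of the 35 windows (5.71%), those of bin and of pnt with the run of capitals, against 7.72% of the windows of all 3314 IDR summits. Neither of these was a neural window. The E-box CAGCTG, a sequence that proneural proteins bind, was searched on both strands and occurred in 0 of 11 neural and 3 of 24 mesodermal windows, against 11.1% of all IDR windows. With so few windows, a count of 0 of 11 allows little to be said. The median GC content was 34.8% in neural and 39.8% in mesodermal windows, against 37.8% over all IDR windows. It varied widely within single genes: the promoter window of tin had 25.9% and the window 2567 bp upstream had 52.2%.

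Among the proneural genes, the outstanding summit was that of l(1)sc (FBgn0002561; X, 409721 to 410817, plus strand), which encodes a basic helix-loop-helix protein of the achaete-scute complex. Its IDR peak (X, 407413 to 407799) had a signal of 1294 and rank 75 in the pooled list, and the same position ranked 119, 63 and 60 in replicates 1, 2 and 3. All 3 replicates thus placed it among their strongest entries. It lay in an intron of CG32816, but no start of another gene was nearer than that of l(1)sc. The neighbouring members of the complex had no IDR summit within 10 kb: the strongest pooled entry near ac ranked 4764 (signal 151.4), that near ase 8593 (105.5) and that near sc 20548 (60.9). For sc this depends on the edge of the window. The gene ends at 397497, and the l(1)sc summit, at 407630, lay just beyond its 10 kb flank, with the peak starting inside it. The entry near ac lay within 500 bp of the start of lncRNA:yar. The unlinked proneural gene ato, which acts in chordotonal organs and the eye, had no IDR summit, and its strongest entry, 3155 bp upstream, ranked 4931.

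Of the 2 SoxB genes, D had 2 IDR summits beyond its 3′ end. The stronger (3L, 14174292 to 14174488, signal 374.2) ranked 947 in the pooled list and 964, 1434 and 866 in the replicates. The weaker, 4880 bp from the start, ranked 2943 in the pooled list, and was among the 3314 strongest entries of replicate 1 alone, at rank 2842. SoxN had none: its strongest pooled entry, 9371 bp downstream, ranked 4868.

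Of the genes that act in neural precursors, dpn, nerfin-1 and pros had IDR summits, and wor and scrt had none. The summit of dpn, which encodes a Hes-type repressor, lay 9203 bp upstream (2R, 8241321 to 8241744, signal 330.2, rank 1197), within 500 bp of the start of lncRNA:CR44276. That of nerfin-1, a zinc finger gene of young neurons, lay 4563 bp upstream (3L, 904506 to 904611, signal 295.9) and ranked 1995, 969 and 3533 in replicates 1, 2 and 3, the last of them outside the 3314 strongest. Its nearest start, 1651 bp away, was that of mat. For pros, whose homeodomain protein is handed to the daughter cell that will make neurons, 3 summits were found. One lay in an intron (3R, 11338264 to 11338687, rank 2915) and another in the annotated 3′ UTR (3R, 11392892 to 11393105, rank 957). Both were outside the strongest 3314 entries of replicate 3, at ranks 6174 and 4289. The third (3R, 11409752 to 11410175, rank 907) ranked 853, 1123 and 1022 in the replicates, but it lay 83 bp from the start of Irbp and also within 500 bp of that of mgr. Near wor the strongest pooled entry ranked 6753. For scrt it was a promoter entry at rank 5028 (signal 147.1), the highest rank of any promoter entry among the neural genes.

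Of the genes of asymmetric division, insc, which encodes an adaptor that orients the spindle, had 1 IDR summit of low rank in an intron (2R, 20832335 to 20832758, signal 201.1, rank 2921). It ranked 7682, 2771 and 2939 in the replicates. The summit lay 129 bp from the start of sktl, a phosphoinositide kinase gene in the same interval, so it cannot be given to insc alone. The gene mira, whose protein carries Prospero to 1 pole of the dividing cell, had no pooled candidate within 10 kb, and was the 1 member without any. In the separate replicate lists it had a promoter entry in replicate 1 (rank 11962) and no entry in the other two.

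In the temporal series, grh and pdm2 had IDR summits, and cas and nub had none. The grh summit, in an intron 2107 bp downstream of a start (2R, 17804862 to 17805050), had a signal of 514.2 and rank 533, and ranked 706, 545 and 492 in the replicates. It was the strongest neural summit after that of l(1)sc. The pdm2 summit (2L, 12681652 to 12682075, signal 272.6, rank 1744) ranked 1750, 2250 and 1456. In nub, the other POU homeodomain gene and a neighbour of pdm2, the strongest entry ranked 6322, and near cas it ranked 9043.

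**Figure D2:**
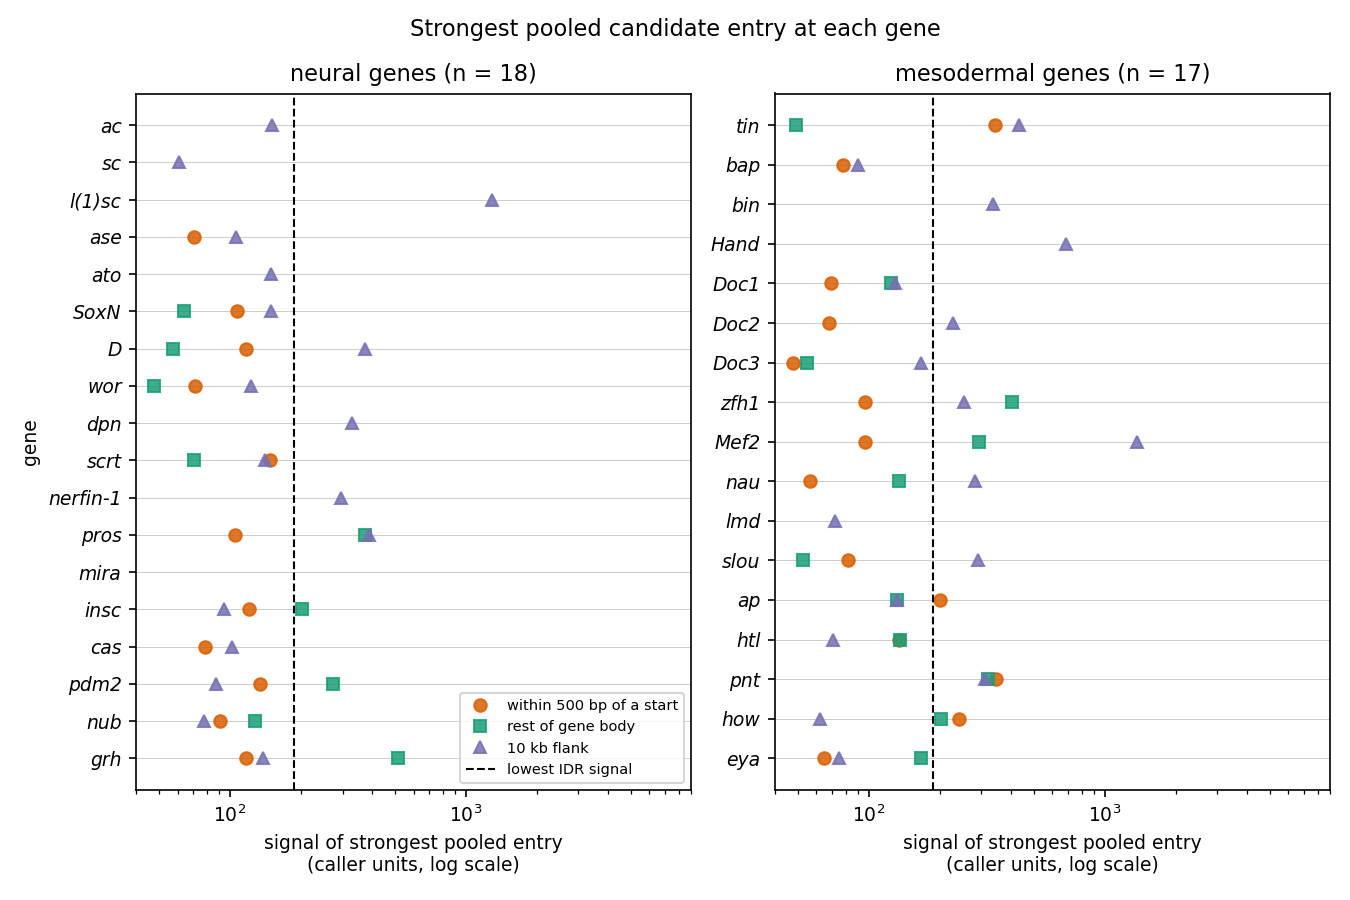
Signal of the strongest pooled entry (x axis, caller units, log scale) at each member (y axis), by position of its summit; the dashed line is the lowest signal in the IDR list, 186.7. All promoter points of the neural genes lie left of the line, while those of tin, ap, pnt and how lie to its right, and no point is drawn for mira. Since every pooled entry at or above that signal is an IDR entry, the line restates the IDR counts.

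Promoters of neural genes were not without candidates. A pooled candidate lay within 500 bp of a start in 11 of 18 neural and 14 of 17 mesodermal genes, against 46.8% of protein-coding genes. Of genes with such a candidate, 0 of 11 neural and 4 of 14 mesodermal genes had an IDR summit there, against 31.7% of protein-coding genes. A count of 0 of 18 allows a share of up to 16.7% (3 genes of 18), which is above the background of 14.8%. A count of 0 of 11 allows up to 27.3% (3 genes of 11), which is below the 31.7% of genes with a candidate. These limits are 3 counts over the number of genes, and the exact 95% limits were 18.5% and 28.5%. They cover counting error only and take the genes of a list as independent draws. They are not a test, and no conclusion is drawn from them. The difference between the lists, 23.5 percentage points lower for neural genes, was not tested, since the genes of a list are not replicates of a condition.

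The replicates gave the same order. In replicate 1, 0 of 18 neural and 3 of 17 mesodermal genes had one of the 3314 strongest entries at a start, against 14.6% of protein-coding genes. In replicate 2 it was 1 (SoxN, rank 3205) and 4, against 15.02%, and in replicate 3 it was 1 (pros, rank 2995) and 4, against 15.4%. The mean share was 3.70% ± 3.21 for neural and 21.6% ± 3.40 for mesodermal genes (SD, n = 3), and 15.01% ± 0.401 for protein-coding genes. Neural genes were lower than mesodermal genes by 17.6, 18.0 and 18.0 percentage points in replicates 1, 2 and 3. These lists come from 1 line and share 1 control alignment, so their spread covers less than that between independent experiments. The pooled list was called on the same replicates, so their order is not separate evidence. The mesodermal genes were tin, pnt and how in each replicate, with ap added in replicates 2 and 3, so the near-equal differences reflect the same few genes.

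Among the heart and visceral mesoderm genes, tin, the NK homeodomain gene required for the heart, carried an IDR summit 268 bp upstream of its start (FBgn0004110; peak 3R, 21378497 to 21378920, signal 343.7, rank 1109). It ranked 1279, 1023 and 1194 in the replicates, which differ little. A stronger summit 2567 bp upstream (signal 432.8, rank 750) lay in an intron of mod(mdg4), and its nearest start, 991 bp away, was of that gene. It ranked 1904, 635 and 603 in the replicates, lower in replicate 1 than in replicates 2 and 3. Another, 5320 bp upstream, lay at starts of pre-mod(mdg4) transcripts (rank 2992) and fell to rank 8315 in replicate 3. The neighbouring NK gene bap, needed in visceral mesoderm, had no IDR summit within 10 kb, and its strongest entry ranked 11074. The gene starts at 21388880, and the promoter summit of tin, at 21378709, lay just beyond its 10 kb flank, with the peak reaching into it. The partner of bap, the forkhead gene bin of visceral mesoderm, had 2 overlapping peaks with summits 1340 and 1136 bp upstream (ranks 1168 and 2952). The first of these ranked 1835, 942 and 1035 in the replicates.

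Hand, a basic helix-loop-helix gene of the heart, had 2 IDR summits, and both lay at starts of other genes. The stronger (2L, 10303816 to 10304067, signal 688.9, rank 301) was 12 bp from the start of nmd, and ranked 733, 290 and 175; the weaker was 149 bp from that of CYLD, which encodes a deubiquitinase. Of the T-box cluster, Doc2 alone had an IDR summit within 10 kb (6564 bp upstream, signal 226.8, rank 2380), which ranked 1503, 3256 and 4618. The strongest entries near Doc3 and Doc1 ranked 4093 and 6146, the former at a start of smg. The zinc finger homeodomain gene zfh1 had a summit in an intron (3R, 30781682 to 30781859, signal 406.0, rank 837) that ranked 750, 721 and 2411, and another 4438 bp upstream (rank 1954) that ranked 2117, 2174 and 3125. The first also lay within the antisense gene asRNA:CR45189.

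Among the body wall muscle genes, Mef2, which encodes the MADS-box factor of muscle differentiation, lay next to the strongest summit of all members. This summit (peak 2R, 9959741 to 9960108, signal 1370, rank 66) ranked 51, 69 and 87 in the replicates. It was 1115 bp upstream of Mef2, but 105 bp from the start of Pal1 and also within 500 bp of that of Pdrg1. Within Mef2, 2 intron summits 4442 and 4704 bp upstream of the nearest of its starts had ranks of 1509 and 2868. The first ranked 2057, 1513 and 1508, and the second was among the 3314 strongest of replicate 3 alone. For slou, a homeodomain gene of muscle founder cells, 1 summit lay 4319 bp upstream (3R, 21561289 to 21561712, signal 290.5, rank 1525) and ranked 2585, 1972 and 1066. For nau, the fly MyoD gene, 1 summit lay 7656 bp upstream in an intron of CG10365 (signal 283.1, rank 1626) and ranked 1452, 1800 and 2684. Its nearest start, 2369 bp away, was that of CG10365. The LIM homeodomain gene ap had its summit 146 bp upstream of a start and in an intron of ap (2R, 5726766 to 5727189, signal 199.9, rank 2961). It ranked 7817 in replicate 1 against 2703 and 3156 in replicates 2 and 3. The Gli-type gene lmd had no IDR summit, and its strongest entry ranked 15720.

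Of the signalling and differentiation genes, pnt, which encodes the ETS factor downstream of receptor tyrosine kinases, held the most IDR summits of any member, 6 in its region. There were 2 within 500 bp of its starts, both also in introns of pnt. The stronger (3R, 23314334 to 23314757, signal 345.4, rank 1097) ranked 1128, 1222 and 1272 in the replicates, and the weaker (rank 2666) ranked 5132, 2461 and 2310. A further 3 lay in introns more than 500 bp from its starts, with ranks of 1279, 1445 and 2717. The last of these was among the 3314 strongest of replicate 2 alone. The sixth, beyond the 3′ end, was 101 bp from the start of Cdc16 and also within 500 bp of a start of orb. The RNA-binding protein gene how had a summit 194 bp upstream of its start (3R, 22041785 to 22042208, signal 240.6, rank 2147), which ranked 2260, 3270 and 2367, and 1 in an intron (rank 2893) that ranked 1950, 5300 and 6514. The FGF receptor gene htl and the gene eya had no IDR summit. Their strongest entries, both in introns, ranked 5686 and 4043, and that of eya ranked 2969 in replicate 3.

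**Figure D3:**
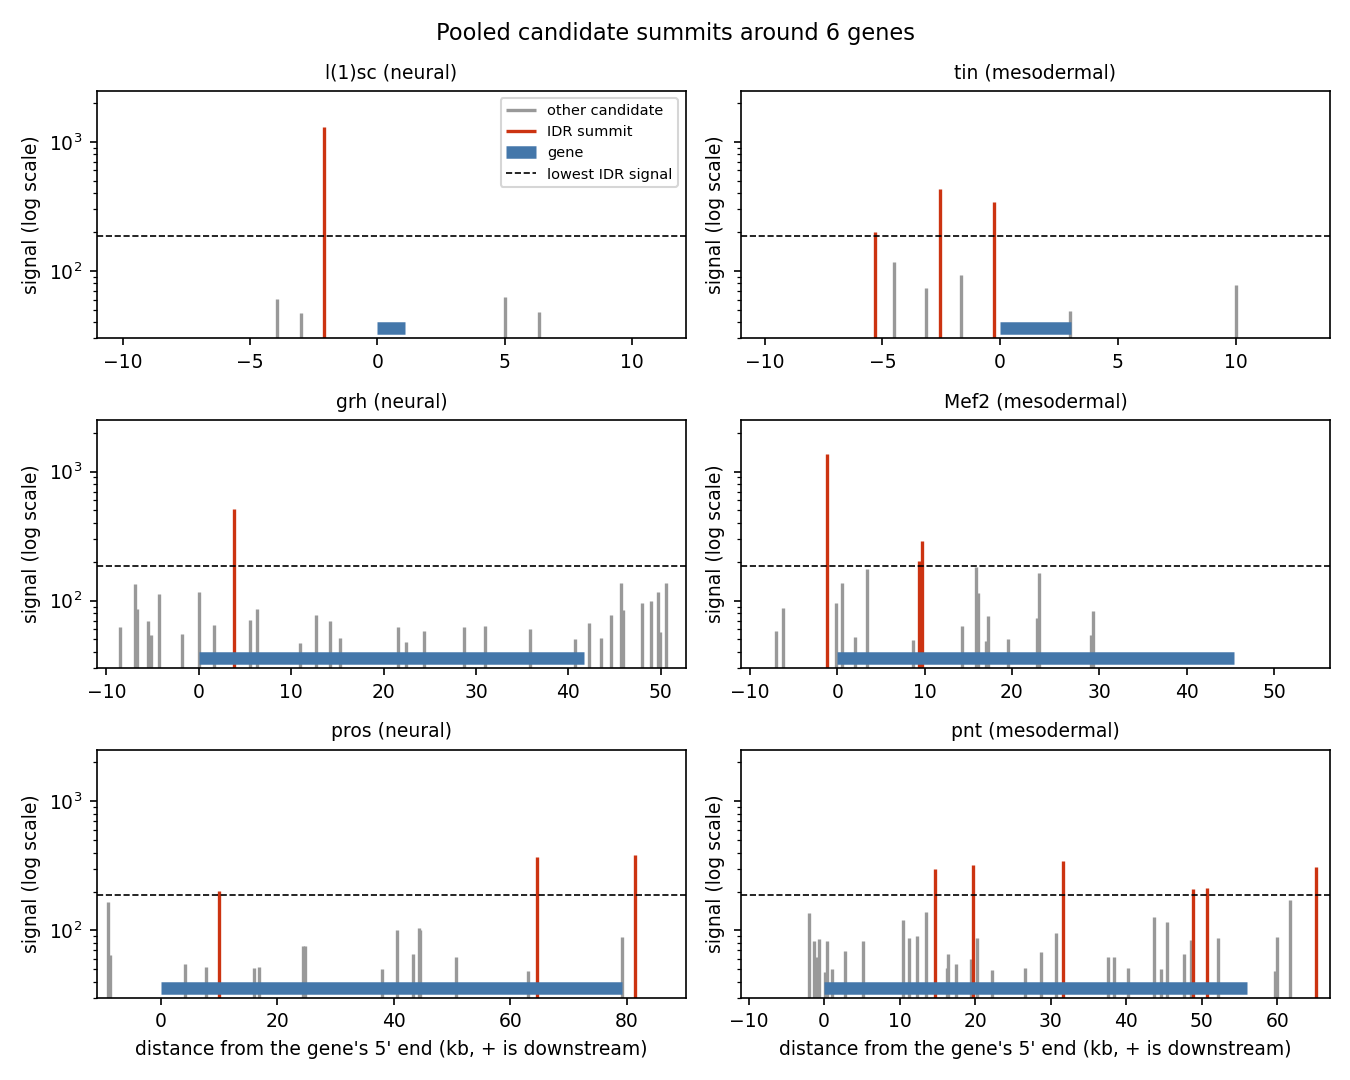
Signal (y axis, caller units, log scale) of every pooled candidate summit within 10 kb of 6 members, by distance from the 5′ end of the gene (x axis, kb); red lines are IDR summits, grey lines other candidates, the blue bar is the gene and the dashed line the lowest IDR signal. The summits of l(1)sc and Mef2 stand upstream of the gene with signals of 1294 and 1370, while those of pnt are spread over the gene with signals up to 345.4.

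Gene size and neighbourhood differed between the members and other genes. The median member was 4.03 kb long, with 3.34 kb for neural and 6.56 kb for mesodermal genes, against 2.16 kb for protein-coding genes. All 8 members with an IDR summit in the body were 10 kb or longer. Of the 12 members of that length, 8 had such a summit, 4 of 6 in each list, against 28.6% of protein-coding genes of 10 kb or more. Per length of gene body, IDR summits came to 20.4 per Mb in neural and 27.6 per Mb in mesodermal genes, against 13.7 per Mb over protein-coding genes. Body counts leave out summits within 500 bp of a start but keep that length, which lowers the density most in short genes. In the flanks the density was 16.7 per Mb for neural and 35.3 per Mb for mesodermal genes, against 36.5 per Mb over protein-coding genes. That last value rests on 10183 pairs from 2718 distinct summits. Flanks of neighbouring genes overlap, so it counts gene-dense stretches repeatedly and is not a density along the genome.

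The members also stood in places with fewer other genes. The region of gene and flanks held starts of a median of 2 other genes for neural and 3 for mesodermal members, against 6 for protein-coding genes. Of the 35 IDR summits near members, 8 (22.9%) lay within 500 bp of a start of another gene, against 61.3% of gene and summit pairs over protein-coding genes. In these pairs a summit near several genes was counted for each of them. When such summits were left out, 6 of 18 neural and 10 of 17 mesodermal genes still had an IDR summit in promoter, body or flank, or 45.7% of members against 24.9% of protein-coding genes. Whether gene length or spacing accounts for these shares was not tested.

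The recurrence of the members' summits was close to that of the list as a whole. Of the 35, 21 (60.0%) were among the 3314 strongest entries of all 3 replicates within 250 bp, 10 of 2 and 4 of 1, against 61.2% in all 3 over the IDR list. By replicate it was 30, 32 and 25 of 35 in replicates 1, 2 and 3. Both summits of bin matched the same entry in replicate 1 and the same entry in replicate 2, so these entries were counted for each summit. The median rank was 1197 for the 11 neural and 1575.5 for the 24 mesodermal summits, against 1657.5 for the IDR list, and the median peak width of 424 bp was that of the list. The strongest 3 were those near Mef2 (rank 66), l(1)sc (rank 75) and Hand (rank 301).

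**Figure D4:**
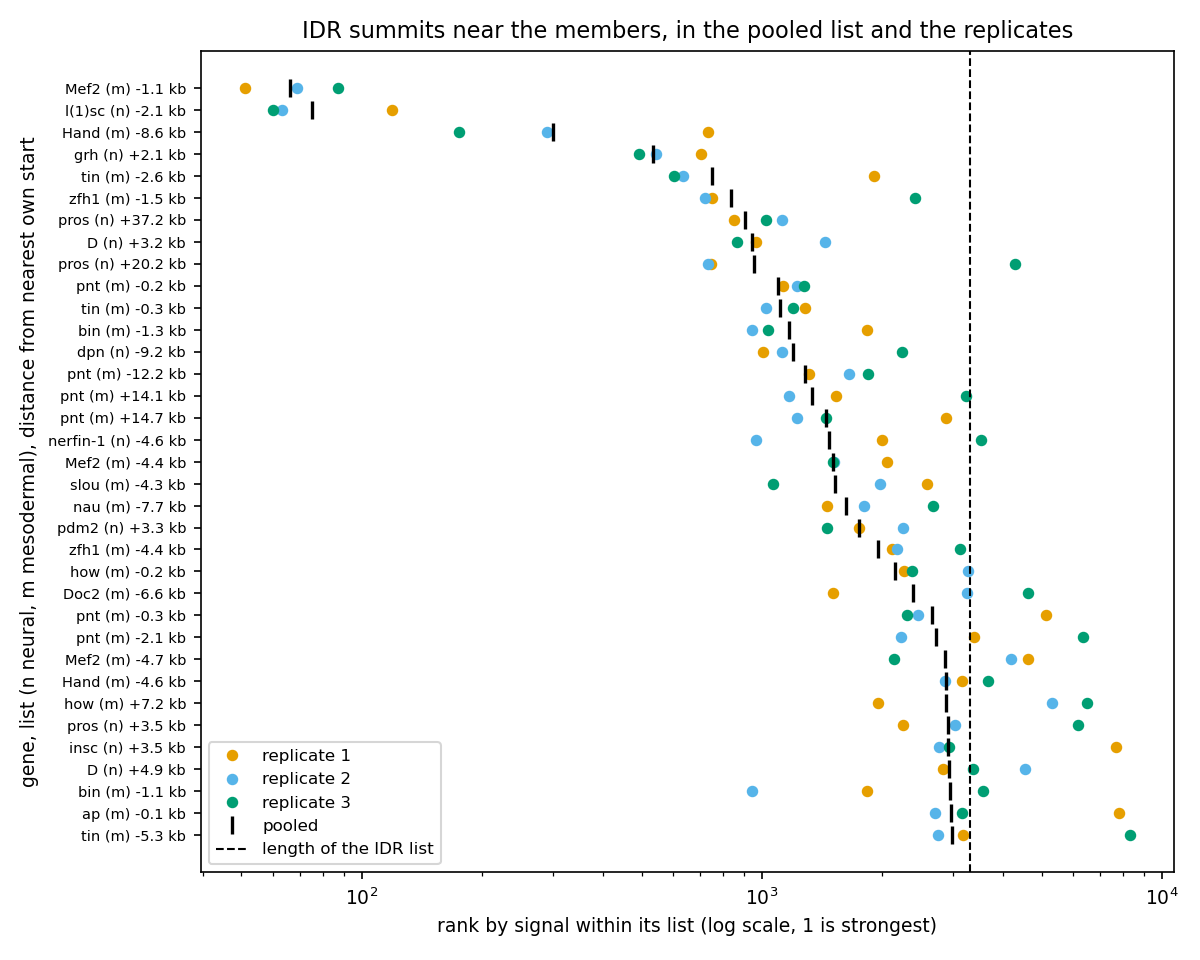
Rank by signal (x axis, log scale) of the 35 IDR summits near members in the pooled list (bars) and of the best entry within 250 bp in each replicate (points), with the distance from the nearest start of the member; n and m mark neural and mesodermal genes, and the dashed line is rank 3314. The replicates spread little for the upper summits of Mef2 and l(1)sc, between 51 and 119, and widely for the lowest ones, up to 8315.

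Other genes of the same processes, 20 per list, were set beside the members. Of the neural ones, 5 had an IDR summit at a start: elav, which encodes an RNA-binding protein of neurons (255 bp upstream, signal 1067, rank 106), the Notch inhibitor numb (signal 570.9, rank 435), the helix-loop-helix antagonist emc (346.1, rank 1095), the translational repressor gene brat (213.3, rank 2643) and da, whose product pairs with proneural proteins (191.6, rank 3173). Those of elav, numb and emc recurred in all 3 replicates, and those of brat and da in 2. Of the mesodermal ones, 4 did: the T-box gene org-1 (590.1, rank 411), the GATA factor gene pnr (516.7, rank 528), sd, whose TEAD protein acts with Vestigial in muscle and wing (415.2, rank 808), and stumps, an adaptor of FGF receptor signalling (355.3, rank 1040). All 4 recurred in all 3 replicates. The 25% and 20% of these lists compare with 0% and 23.5% of the neural and mesodermal members and with the 14.8% of protein-coding genes. In the body, 5 of 20 of these neural and 4 of 20 of these mesodermal genes had an IDR summit, against 5.92% of protein-coding genes. Of those of 10 kb or more, it was 4 of 7 neural and 4 of 15 mesodermal genes (26.7%), the latter near the 28.6% of protein-coding genes of that length. The differences were not tested.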

How the data were processed

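ChIP-seq of GFP-tagged CG10431 was analysed from peak lists in narrowPeak format for 3 replicates of 1 group. Per the labels, the build is dm6 and chromatin was sonicated to 200 to 800 bp. The deposited lists give each entry a signal from the authors' peak caller and a q-value as −log10. For caller and aligner, the names were not given in the sources used here. Each candidate list was derived from an alignment and 1 control alignment, and the IDR list from all 4 candidate lists, per the notes deposited with the samples. Depth is unknown.

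Summits are column 2 plus column 10, written 1-based. All deposited coordinates lie within the RefSeq chromosome lengths. Genes came from Ensembl release 115, with transposable elements left out, and all 35 members had the same coordinates in RefSeq. Python 3.11.15, pandas 2.3.3, numpy 2.4.6 and pysam 0.24.0 were used. The placing and matching of summits were tested on simulated data. A match of summits means a distance of at most 250 bp, and the best-ranked entry was taken. Since there is 1 group, no test was made; counts stand beside those of protein-coding genes.

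Members, lists and windows were chosen with earlier results of these data known. The naming rule gives values for every member with an IDR summit at its start or in its body, and of the others for at least the 5 per list with the strongest pooled entry. It names up to 4 genes bound at the start, by signal, of each list of other genes of the same processes; da, the fifth neural one, was named after its value was seen. The comparison of genes of 10 kb or more was also chosen after the data were seen.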

Additional observations from a re-analysis of the deposited data

How the results depend on the processing

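Neural genes had 0 IDR summits at a start under all 8 alternatives. Only the 1000 bp window could have raised this count, since the others take fewer entries, fewer starts or a narrower window. Mesodermal genes had 4 with a 1000 bp window, 3 with 250 bp and with the IDR entries found in all 3 replicates, and 2 with the 1657 strongest IDR entries. With the 5′ end of each gene only they had 2 (tin and how), since the promoter summits of ap and pnt lay at other starts. Neural minus mesodermal, in percentage points, was -17.6 with 250 bp and with entries found in all 3 replicates, and -11.8 with the 5′ end only and with the 1657 strongest. The background share was 11.9% with 250 bp, 17.3% with 1000 bp, 12.9% with the 5′ end only, 7.81% with the 1657 strongest and 9.16% with entries found in all 3 replicates. Without replicate 1, 2 or 3 (entries found in both others: 2340, 2212 and 2404), mesodermal genes numbered 3 to 4, the difference was -23.5 to -17.6 and the background 10% to 10.7%. In the body, neural genes fell from 4 to 2 with the 1657 strongest and with entries found in all 3 replicates, and to 2 to 3 with a replicate set aside; mesodermal genes numbered 3 in each of these. Within 20 kb, 13 neural and 15 mesodermal genes had an IDR summit, against 66.8% of protein-coding genes. Within 10 kb, setting a replicate aside gave 6 to 7 neural and 9 to 10 mesodermal genes. The mean replicate share was 0% neural and 11.8% mesodermal with 1657 entries per replicate, 20.4% and 31.4% with 6628 entries (protein-coding genes 7.97% and 25.3%), and 2.78% to 5.56% and 20.6% to 23.5% without 1 replicate. TACATGG was in 1 window with 50 bp on each side. Fewer entries and narrower windows lower counts by construction; other causes were not tested. The neural share at a start stayed below the mesodermal share under every alternative. Against the background, some results did change side. With the 5′ end only, 2 of 17 mesodermal genes (11.8%) lay below the 12.9%, whereas the main share lay above its background. Within 20 kb, 13 of 18 neural genes lay above the 66.8%, whereas 8 of 18 (44.4%) within 10 kb lay below 51.8%. Within 5 kb, 7 of 18 neural genes were about level with 38.3%. No paired analysis was possible because all samples belong to 1 group. The read depth is unknown, and the small number of genes in each list limits precision.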
